A study of Gallus gallus with 12 samples.

Results

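The let-7 hairpins are the precursors of one family of small regulatory RNAs. Members were taken by name, as the gga-let-7 hairpins a-1, a-2, a-3, b, c, f, g, i, j and k, which gave 10 of the 850 hairpins listed for chicken, and all 10 were abundant enough to be tested among 132. Of 13 let-7 names listed, gga-let-7d fell below the limit for testing, and gga-let-7l-1 and gga-let-7l-2 had no read in any library. The members and the lists of other hairpins were chosen with earlier results of these data known.

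The cells came from chicken embryos electroporated with a vector that expresses green fluorescent protein (GFP) and a construct acting on miR-302, grown to Hamburger-Hamilton stages 4 to 5 (the gastrula) and sorted by fluorescence. GFP+ cells took up the vector, and GFP− cells are the unlabelled cells sorted in the same arm. One arm is labelled as having chicken miR-302 knocked down (its protocol speaks of deletion) and the other as overexpressing human miR-302, and they are called knockdown and overexpression here after those labels. Each arm gave 3 GFP+ and 3 GFP− libraries, 12 in all. All groups, GFP− included, come from electroporated embryos, so no group is free of the procedure, and no arm with a GFP vector alone was analysed here. The labels name neither the promoter of the vectors nor separate embryos for the replicates, so p-values cover the spread among these libraries alone, and that spread could be technical.

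The founding let-7 gene was found in the nematode Caenorhabditis elegans, where it sets the timing of late larval cell fates. In vertebrates the mature RNAs share one seed, are scarce in pluripotent cells and accumulate as cells differentiate. In mammals the RNA-binding protein LIN28 blocks the processing of let-7 precursors, and the miR-302 family marks the pluripotent and early embryonic state in which let-7 is low.

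Values are the deposited normalized reads, which were whole reads multiplied by 1 factor for each library. Hairpins held between 1292 and 3856 reads in overexpression GFP+ libraries and between 7546 and 277637 in overexpression GFP− libraries. Knockdown GFP+ libraries held between 49276 and 82211 reads and knockdown GFP− libraries between 277633 and 435716. GFP+ libraries were thus shallower than GFP− libraries in each arm. A single read was worth 6.68, 24.4 and 15.9 normalized reads in overexpression GFP+ replicates 1 to 3, and at most 0.866 in the knockdown arm. The summed chicken miR-302 and miR-367 hairpins, the check of the labels, averaged 15789 ± 3384 in knockdown GFP+ against 19937 ± 2222 in knockdown GFP− cells (SD, n = 3 each). There limma called 0 of 5, and 0.758% of all tested hairpins lower, so this count says little about the knockdown. Their log2 fold changes ran from −0.43 for gga-mir-302b to −0.10 for gga-mir-302c, with a median of −0.17 over all tested. In the overexpression arm they averaged 5816 ± 2339 in GFP+ against 11400 ± 5990 in GFP− cells. There limma called gga-mir-302a and gga-mir-367 lower, and 9.85% of all tested hairpins. gga-mir-367 had 0 reads in each of these GFP+ libraries, against 19.5 ± 7.02 normalized reads in GFP− cells. The log2 fold changes of gga-mir-302b, gga-mir-302c and gga-mir-302d were −0.78, −0.70 and −0.78, near the median of −0.67 over all tested. Of the 4 tested human-named miR-302 hairpins, limma called 0 in either arm. In the labelled directions it called 0% of all tested in the knockdown arm and 7.02% in the overexpression arm. A sum of 5 human-named hairpins of the miR-302 set averaged 8085 ± 1427 in knockdown GFP− cells, an arm with no human construct by its label. It averaged 5024.5 ± 3294 in overexpression GFP− and 3425 ± 1157 in overexpression GFP+ cells. Native chicken and introduced human miR-302 therefore cannot be told apart in these values. hsa-mir-302d in the overexpression arm had a log2 fold change of 1.39 (limma adjusted p = 0.0739) and hsa-mir-302a of 1.08 (adjusted p = 0.169), while those of hsa-mir-302c and hsa-mir-302b were −0.18 and −0.70. The groups are therefore named by their labels, since no tested miR-302 hairpin was called in the labelled direction. These values do not decide whether the constructs acted.

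Taken as a family, let-7 was several-fold higher in GFP+ than in GFP− cells of both arms. It made up 7.63%, 10.6% and 8.81% of hairpin reads in knockdown GFP+ replicates 1 to 3, against 1.48%, 0.977% and 0.701% in knockdown GFP− replicates. In the overexpression arm it made up 6.79%, 3.95% and 6.54% in GFP+ replicates, against 0.504%, 1.04% and 0.565% in GFP− replicates. Every GFP+ library was above every GFP− library, across arms as well as within them. The shares do not depend on the deposited factor. In bulk samples, fewer cells of a type and less RNA per cell cannot be told apart. They averaged 9.003% ± 1.48 against 1.05% ± 0.395 in the knockdown arm and 5.76% ± 1.58 against 0.702% ± 0.292 in the overexpression arm (SD, n = 3 each). The exact two-sided permutation test gave p = 0.1 in each arm, the smallest that 3 against 3 allows. In normalized reads, the sum of the 10 hairpins averaged 3780 ± 462 in knockdown GFP+ against 472 ± 193.9 in knockdown GFP− cells, a log2 difference of 3.07 (SE 0.35). It averaged 1617 ± 328 in overexpression GFP+ against 273 ± 155.3 in overexpression GFP− cells, a log2 difference of 2.69 (SE 0.50), each again with an exact permutation p = 0.1.

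Depth moved with the GFP gate, and its part in the difference was not tested. At similar depth, knockdown GFP+ replicate 1 held 7.63% let-7 among 49276 reads (95% Wilson interval 7.40% to 7.87%), and overexpression GFP− replicate 2 held 1.04% among 52653 (0.954% to 1.13%). These libraries differ in arm as well as in gate. The shallowest GFP− library, overexpression GFP− replicate 1, held 0.504% among 7546 reads (0.367% to 0.690%). Every overexpression GFP+ library was shallower than that library. The shallowest library of all, overexpression GFP+ replicate 2, held 3.95% among 1292 reads (3.01% to 5.15%). These intervals cover counting error only, since reads without molecular identifiers are not independent molecules.

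**Figure D1:**
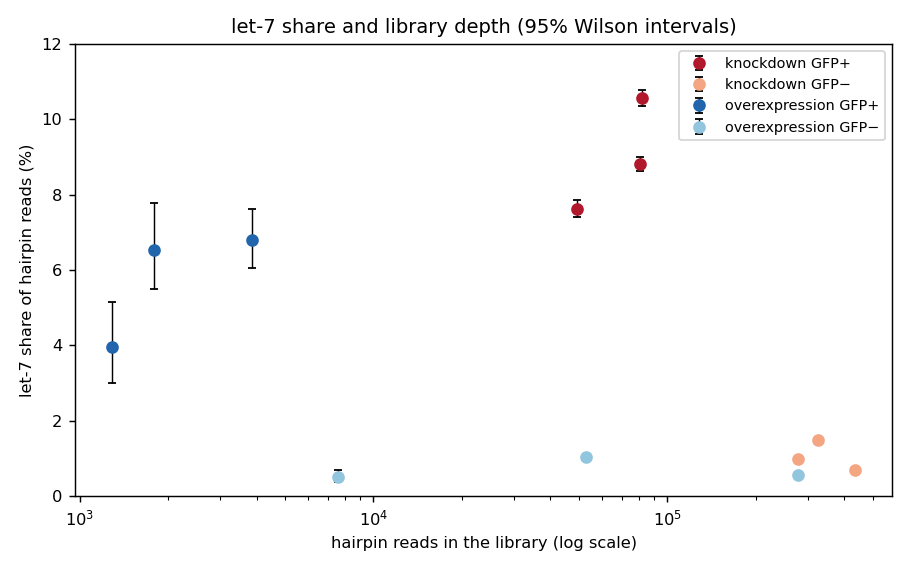
The let-7 share of hairpin reads (vertical axis, percent) against the hairpin reads of each library (horizontal axis, log scale), with 95% Wilson intervals; points are the 12 libraries, coloured by group. The 6 GFP+ libraries lie between 3.95% and 10.6% and the 6 GFP− libraries between 0.504% and 1.48%, and GFP− libraries of 7546 and 52653 reads lie with the deeper GFP− libraries.

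Among the members, gga-let-7c and gga-let-7b differed most in the knockdown arm. gga-let-7c had 416, 557 and 666 normalized reads in knockdown GFP+ replicates 1 to 3, against 48.5, 23.0 and 15.9 in knockdown GFP− replicates. gga-let-7b had 379, 418 and 487 in knockdown GFP+ cells, against 43.9, 17.8 and 11.2 in knockdown GFP− cells. For both, the lowest GFP+ library stood far above the highest GFP− library. The log2 fold changes were 4.31 (SE 0.52, limma adjusted p = 0.000582) for gga-let-7c, about 19.8-fold, and 4.29 (SE 0.83, limma adjusted p = 0.00516) for gga-let-7b.

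The remaining called members formed a middle group. gga-let-7a-1 had 386, 518 and 601 normalized reads in knockdown GFP+ cells, against 88.6, 55.1 and 37.3 in knockdown GFP− cells. gga-let-7j, next to gga-let-7k in the genome, had 442, 613 and 479 in GFP+ cells, against 101, 54.3 and 43.3 in GFP− cells. gga-let-7g, which lies apart from the other let-7 genes, had 384, 377 and 586 in GFP+ cells, against 76.2, 51.3 and 31.3 in GFP− cells. No GFP+ library overlapped a GFP− library for these, nor for gga-let-7a-2, gga-let-7a-3 and gga-let-7f. Log2 fold changes of this group ran from 2.22 for gga-let-7f to 3.12 for gga-let-7g, with limma adjusted p from 0.00131 (gga-let-7j and gga-let-7a-1) to 0.0169 (gga-let-7f). Calls of 3 of them needed single libraries: without knockdown GFP− replicate 3, limma adjusted p was 0.0822 for gga-let-7f, 0.0650 for gga-let-7a-2 and 0.0565 for gga-let-7g, and 5 members were called. gga-let-7f was called in only 1 of the 6 fits that leave out a library of this arm, gga-let-7a-2 also lost its call without GFP+ replicate 2 or GFP− replicate 2, and gga-let-7g without GFP+ replicate 3.

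The smallest and rarest members did not pass limma's test there. gga-let-7k had 108, 110.3 and 50.2 normalized reads in knockdown GFP+ cells, against 32.7, 33.1 and 18.98 in knockdown GFP− cells, a log2 fold change of 1.59 (SE 0.52, limma adjusted p = 0.0784). gga-let-7i had 65.8, 79.4 and 83.1 in GFP+ cells, against 10.7, 10.4 and 8.09 in GFP− cells, a log2 fold change of 2.85 (SE 1.09, limma adjusted p = 0.147). In both, the groups did not overlap. gga-let-7i passed the limit for testing only through knockdown GFP+ cells, so its calls and separation in this arm are no independent support. In all, 8 of 10 members were called higher and 0 lower in the knockdown arm, where 9.85% of all 132 tested hairpins were called higher and 0.758% lower. edgeR called all 10, where it called 15.9% of tested hairpins higher, or 9 (gga-let-7k not among them), where it called 12.9%, with library sizes taken over all hairpins. All 10 had GFP+ libraries wholly above GFP− libraries, against 21.2% of all tested. The median log2 fold change was 2.93 over the members and −0.17 over all tested hairpins.

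In the overexpression arm gga-let-7b again stood out. It had 207, 219 and 206.2 normalized reads in overexpression GFP+ replicates (31, 9 and 13 reads), against 0, 13.1 and 6.003 in overexpression GFP− replicates (0, 16 and 42 reads). Its log2 fold change was 5.52 (SE 0.83, limma adjusted p = 0.00102), and it rests in part on the library listed at 0, so its size depends on the pseudocount. Without overexpression GFP− replicate 1, that library, it was 4.41, and without GFP− replicate 2 it was 6.32. gga-let-7c had 147, 97.5 and 238 in GFP+ cells, against 15.6, 22.9 and 8.29 in GFP− cells, with a log2 fold change of 3.29 (SE 0.52, limma adjusted p = 0.00137). Both were wholly separated between GFP+ and GFP− libraries.

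Other members of the overexpression arm were called with smaller differences. gga-let-7j had 314, 244 and 190.3 normalized reads in GFP+ cells, against 19.5, 60.6 and 35.2 in GFP− cells (log2 fold change 2.78, limma adjusted p = 0.00137). gga-let-7a-3 had 321, 219 and 174 in GFP+ cells, against 19.5, 68.8 and 35.4 in GFP− cells (2.63, limma adjusted p = 0.00311). gga-let-7a-2, gga-let-7a-1, gga-let-7f and gga-let-7k followed, with log2 fold changes of 2.50, 2.36, 2.06 and 1.87 and limma adjusted p between 0.00491 and 0.0244. gga-let-7g had 140.4, 24.4 and 190.3 in GFP+ cells (21, 1 and 12 reads), against 23.4, 23.8 and 20.4 in GFP− cells, and limma adjusted p was 0.0555. Without overexpression GFP+ replicate 2, which holds its single read, its log2 fold change was 2.81 and limma adjusted p = 0.000612.

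gga-let-7i was the only member whose groups overlapped in the overexpression arm. It had 26.7, 0 and 0 normalized reads in GFP+ cells (4, 0 and 0 reads), against 3.91, 4.10 and 4.72 in GFP− cells (1, 5 and 33 reads), with limma adjusted p = 0.607. At the GFP− level, only 1.08 reads would be expected over the 3 GFP+ libraries together, so a fall could not be detected at this depth. At the knockdown GFP+ level 19.3 reads would be expected, against 4 found. In the overexpression arm 8 of 10 members were called higher and 0 lower, where 9.09% of tested hairpins were called higher and 9.85% lower. With the libraries of this arm alone limma called 4 (gga-let-7a-3, gga-let-7b, gga-let-7c and gga-let-7j), and with no filter on low values 6. edgeR called 9, gga-let-7g included, with either way of counting library size, where it called 9.85% of tested hairpins higher. Without overexpression GFP− replicate 3 limma called 6, since gga-let-7f and gga-let-7k lost their calls, and gga-let-7k also lost its call without GFP− replicate 1. Without GFP+ replicate 1, gga-let-7i was called lower (limma adjusted p = 0.00464) from libraries with no read. Groups did not overlap for 9 members, against 12.9% of all tested. The median log2 fold change was 2.43 over the members and −0.67 over all tested.

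**Figure D2:**
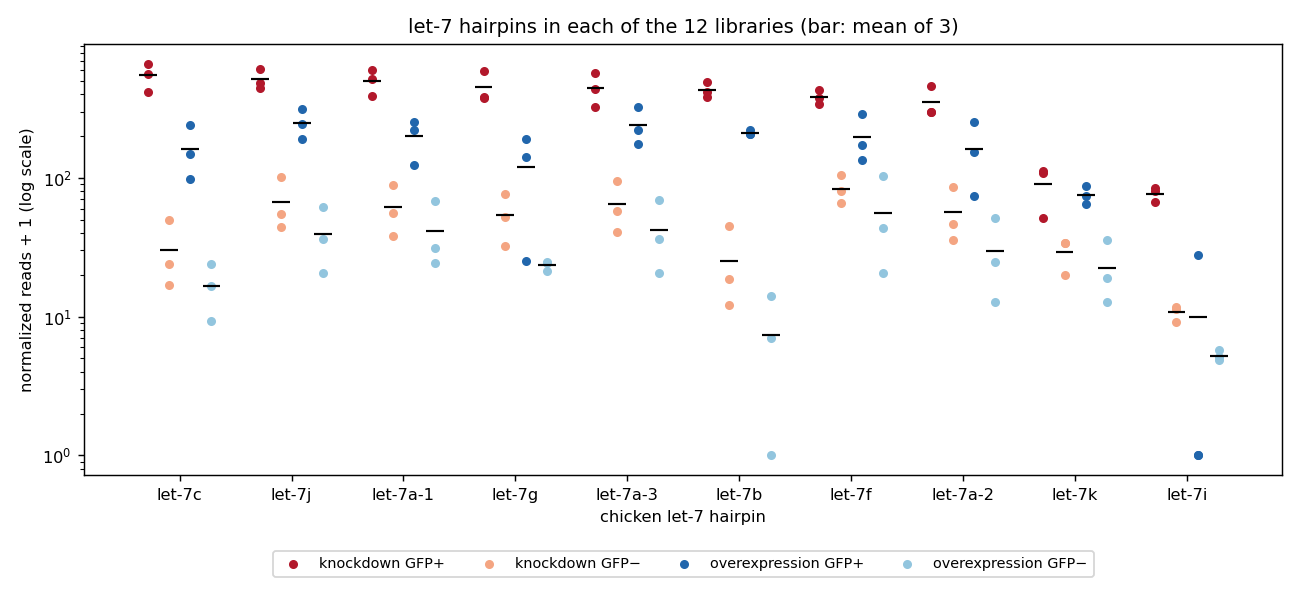
Normalized reads + 1 (vertical axis, log scale) of each of the 10 chicken let-7 hairpins (horizontal axis) in the 12 libraries; points are libraries coloured by group and bars are means of 3. GFP+ points lie above GFP− points of the same arm for every hairpin except gga-let-7i in the overexpression arm, where 2 GFP+ libraries had no read.

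**Figure D3:**
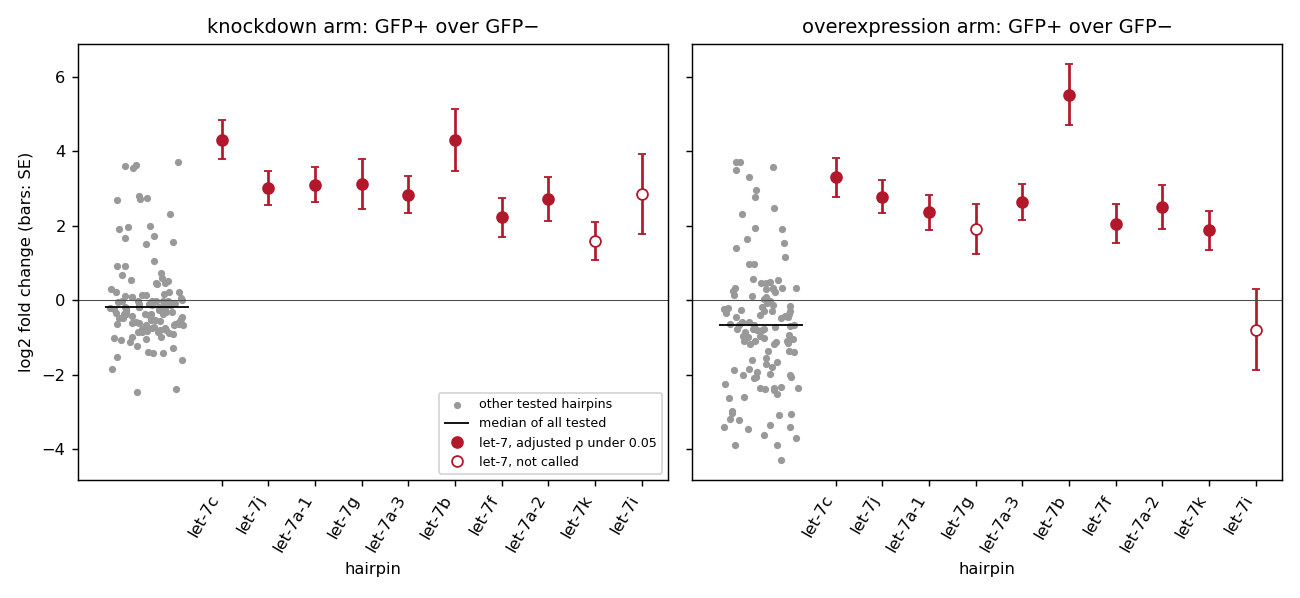
Log2 fold change of GFP+ over GFP− (vertical axis) in the knockdown arm and the overexpression arm; grey points are the other tested hairpins with the median of all tested as a line, red points the let-7 hairpins with their SE, filled where limma called them. In each arm 8 of 10 let-7 hairpins were called, and among the let-7 hairpins gga-let-7b and gga-let-7c lie highest. Some other hairpins, those of miR-122 among them, lie above gga-let-7c in the overexpression arm.

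The size of the GFP difference was not shown to differ between arms for any member. The difference of log2 fold changes, overexpression minus knockdown, ran from −3.64 for gga-let-7i to 1.22 for gga-let-7b, and the smallest limma adjusted p was 0.670. Over all tested hairpins limma called 0, with 9 at an unadjusted p under 0.05. edgeR also called 0, with 11 at an unadjusted p under 0.05 or 3 with library sizes taken over all hairpins, and DESeq2 called 0, with 8. Without overexpression GFP+ replicate 1, the only GFP+ library of that arm with gga-let-7i reads, gga-let-7i alone was called. That call uses knockdown GFP+ cells, the only group through which gga-let-7i passed the limit for testing, and is no independent support.

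Set directly against each other, GFP+ cells of the overexpression arm had less let-7 than those of the knockdown arm. The log2 difference of the summed level was −1.24 (SE 0.21), the 3 overexpression libraries were all below the 3 knockdown libraries, and the exact permutation p was 0.1. That level carries the deposited scale, on which all hairpins summed to between 25772 and 31491 in overexpression GFP+ libraries. They summed to between 39094 and 44837 in knockdown GFP+ libraries. Shares of hairpin reads, free of that scale, differed less in fold. The let-7 share was 6.79%, 3.95% and 6.54% in overexpression GFP+ replicates, against 7.63%, 10.6% and 8.81% in knockdown GFP+ replicates. These shares did not overlap, and their difference was not tested. Single members were below without overlap in 9 of 10 cases, against 18.2% of all tested hairpins, with gga-let-7k the exception. Median log2 differences were −1.16 over the members and −0.72 over all tested. limma called gga-let-7i alone, with an adjusted p of 0.0291, where 4.55% of tested hairpins were called lower and 1.52% higher. gga-let-7i averaged 76.1 normalized reads in knockdown GFP+ cells. It averaged 9.72 in knockdown GFP−, 8.91 in overexpression GFP+ and 4.24 in overexpression GFP− cells. It thus passed the limit for testing, a mean of 10, only through knockdown GFP+ cells, and this call is no independent support. At the knockdown GFP+ level 19.3 gga-let-7i reads would be expected over the overexpression GFP+ libraries, and 4 were found, all in 1 library. Without any 1 of the 3 knockdown GFP+ libraries limma called 0 members. Without any 1 of the 3 overexpression GFP+ libraries it called 2. Whether gga-let-7c and gga-let-7g were called as well depended on how library size was counted. edgeR called these 3 members, where it called 6.06% of tested hairpins lower, with library sizes over the tested hairpins and 0 with library sizes over all hairpins, and limma on TMM-scaled values did the same. DESeq2 called the 3, where it called 6.06% of tested hairpins lower. Depth and the arm cannot be told apart here, since each overexpression GFP+ library was shallower than each knockdown GFP+ library.

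A difference in let-7 between GFP− cells of the arms was not shown. The log2 difference, overexpression minus knockdown, was −0.86 for the summed level (SE 0.57), with overlapping libraries and an exact permutation p = 0.3. limma called 0 of 10 members and 0 of all tested hairpins, of which 10 had an unadjusted p under 0.05. edgeR also called 0, with 13 at an unadjusted p under 0.05, or 15 with library sizes over all hairpins. DESeq2 called 7 hairpins higher and 1 lower, with 0 let-7 hairpins among them. gga-let-7g and gga-let-7i were lower without overlap, which makes 2 of 10 against 6.82% of all tested.

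Ranked by mean share, the leading hairpins of the family differed between the gates. Shares below are of let-7 reads, which were not scaled to hairpin length. In GFP− cells gga-let-7f had the highest mean share, with 18.3% of let-7 reads in overexpression GFP− and 18.3% in knockdown GFP− cells. In overexpression GFP− replicate 1, with 38 let-7 reads, gga-let-7a-1 and gga-let-7g held 15.8% each and gga-let-7f 13.2%. In knockdown GFP+ cells gga-let-7c (14.4%), gga-let-7j (13.5%) and gga-let-7a-1 (13.2%) led, and gga-let-7f held 10.2% ± 0.516. In overexpression GFP+ cells gga-let-7j (15.9%), gga-let-7a-3 (15.1%) and gga-let-7b (13.5%) led. Neighbours in the order of levels mostly overlapped between libraries. In knockdown GFP+ cells only the step from gga-let-7a-2 (351 ± 91.5 normalized reads) down to gga-let-7k (89.6 ± 34.2) was free of overlap. In overexpression GFP+ cells the only such step was from gga-let-7k (74.5 ± 11.8) down to gga-let-7i (8.91 ± 15.4), and in knockdown GFP− cells that from gga-let-7b (24.3 ± 17.3) down to gga-let-7i (9.72 ± 1.41). In overexpression GFP− cells every pair of neighbours overlapped.

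gga-let-7b and gga-let-7c together took a larger part of the family in GFP+ cells. They made up 24.4%, 23.6% and 29.2% of let-7 reads in knockdown GFP+ replicates, against 13.5%, 9.55% and 8.87% in knockdown GFP− replicates. They made up 20.2%, 25.5% and 23.9% in overexpression GFP+ replicates (53, 13 and 28 reads), against 10.5%, 8.06% and 6.37% in overexpression GFP− replicates (4, 44 and 100 reads). Every GFP+ library was above every GFP− library. The difference was 15.1 percentage points (SE 2.26) in the knockdown arm and 14.9 (SE 1.97) in the overexpression arm, each with an exact permutation p = 0.1. The pair was chosen with these values known, so the test is no independent support. The share of gga-let-7k was lower in GFP+ cells, at 2.42% ± 1.05 against 6.25% ± 1.49 in the knockdown arm and 4.75% ± 1.24 against 7.87% ± 0.170 in the overexpression arm.

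**Figure D4:**
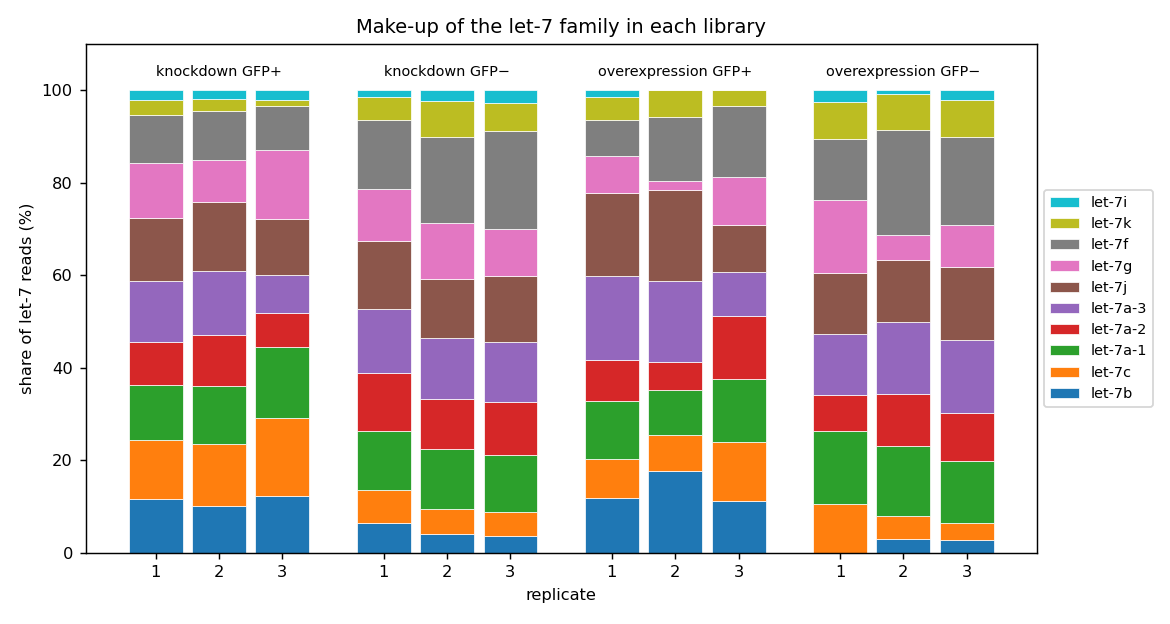
Share of let-7 reads (vertical axis, percent) held by each of the 10 hairpins in the 12 libraries (bars, by group and replicate). The blocks of gga-let-7b and gga-let-7c at the foot of each bar together make up 20.2% to 29.2% in GFP+ libraries and 6.37% to 13.5% in GFP− libraries.

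Several let-7 genes lie side by side, so that neighbours can be made from one primary transcript. All 10 members were matched by name in the RefSeq gene table of the GRCg7b assembly, used for names and neighbours only. Within 50 kb, gga-let-7a-3 lies with gga-let-7b, gga-let-7j with gga-let-7k, and gga-let-7a-1 with gga-let-7f and gga-let-7d, while gga-let-7i has no miRNA neighbour. Neighbours did not keep one ratio between the gates. The log2 ratio of gga-let-7b to gga-let-7a-3 averaged −0.02 ± 0.54 in knockdown GFP+ against −1.49 ± 0.35 in knockdown GFP− cells. It averaged −0.13 ± 0.45 in overexpression GFP+ against −3.02 ± 1.17 in overexpression GFP− cells, where 1 library had no gga-let-7b read. The ratio of gga-let-7k to gga-let-7j went the other way, at −2.57 ± 0.61 in knockdown GFP+ against −1.15 ± 0.45 in knockdown GFP− cells and −1.71 ± 0.14 in overexpression GFP+ against −0.81 ± 0.12 in overexpression GFP− cells. In these 4 comparisons the groups were apart, with an exact permutation p = 0.1 each. The ratio of gga-let-7f to gga-let-7a-1 was lower in knockdown GFP+ cells, with a log2 difference of −0.88 (exact permutation p = 0.1), and overlapped in the overexpression arm (−0.30, exact permutation p = 0.5). These pairs were chosen after their values were seen. Reads of near-identical let-7a copies could fall to either hairpin, and the rule for placing them is unknown here, so levels of single let-7a hairpins are uncertain. No sequences were compared here, so the same could hold for other members, gga-let-7j included.

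Other miRNAs lie beside let-7 genes: gga-mir-99a and a miR-125b hairpin beside gga-let-7c, and gga-mir-100 and gga-mir-125b-1 beside gga-let-7a-2. limma called 0 of the 4 hairpins of the miR-99a, miR-100 and miR-125b families in either arm. In the knockdown arm gga-mir-125b-2 had 66.4 ± 8.60 normalized reads in GFP+ against 12.5 ± 1.72 in GFP− cells (limma log2 fold change 2.32, adjusted p = 0.0784). gga-mir-99a had 27.7 ± 16.1 in GFP+ against 5.92 ± 2.10 in GFP− cells (1.96, limma adjusted p = 0.566). edgeR called gga-mir-125b-1 and gga-mir-125b-2 higher in knockdown GFP+ cells, both with an adjusted p of 0.00762, or 0.0312 and 0.0289 with library sizes over all hairpins. Of all tested hairpins it called 15.9% higher in that arm, or 12.9% with library sizes over all hairpins. Log2 fold changes by limma in the overexpression arm were 1.15 for gga-mir-125b-2, −0.13 for gga-mir-125b-1, −0.43 for gga-mir-99a and −0.97 for gga-mir-100, with adjusted p between 0.265 and 0.934. edgeR, which also called 0 of these there, gave 1.52, 0.43 and 0.83 for the last 3, so their direction depended on the tool.

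The hairpins most like let-7 across the 12 libraries were those of miR-122, the abundant miRNA of liver. The Pearson r with the log2 summed let-7 level was 0.988 for gga-mir-122-2 and 0.984 for gga-mir-122-1, followed by 0.671 for gga-mir-9-3, 0.658 for gga-mir-375 and 0.629 for gga-mir-1692. These r describe 12 libraries in 4 groups that differ in the gate and in depth. Among the let-7 hairpins, r with the sum that includes them ran from 0.494 for gga-let-7i to 0.994 for gga-let-7a-1. gga-mir-122-1 averaged 2518 ± 344 normalized reads in knockdown GFP+ against 237 ± 163 in knockdown GFP− cells (log2 fold change 3.62, limma adjusted p = 0.000956). It averaged 1115 ± 615 in overexpression GFP+ against 79.7 ± 27.9 in overexpression GFP− cells (3.72, limma adjusted p = 0.000687). Summed let-7 per summed miR-122 was 1.34, 1.31 and 1.24 in knockdown GFP+ against 1.41, 2.11 and 2.40 in knockdown GFP− replicates. It was 1.77, 1.46 and 0.951 in overexpression GFP+ against 2.71, 3.55 and 2.37 in overexpression GFP− replicates. The ratio was thus lower in GFP+ cells without overlap in both arms.

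Lists of miRNAs that mark other cells moved with the gate as well, and their part in the let-7 difference was not tested. The summed liver, gut and islet list (8 hairpins, 3 of them tested) ran from 2486 to 3272 normalized reads in knockdown GFP+ against 132.9 to 496 in knockdown GFP− cells, and from 975 to 1982 in overexpression GFP+ against 66.4 to 134 in overexpression GFP− cells. That sum is carried by the miR-122 hairpins described above, with 2422, 3150 and 3196 in knockdown GFP+ replicates, so it adds little to them. limma called all 3 tested hairpins higher in the knockdown arm, where it called 9.85% of all tested higher, and 2 in the overexpression arm, where it called 9.09%, and 3 or 4 of the 8 were at 0 in each group. The tested hairpin outside miR-122, gga-mir-375, had a limma adjusted p of 0.0469 in the knockdown arm and 0.0908 in the overexpression arm. It averaged 3.80 normalized reads in knockdown GFP− and 8.10 in overexpression GFP− cells. It thus passed the limit for testing only through GFP+ cells, and its call is no independent support. Its overexpression GFP+ values rest on 3, 4 and 1 reads. The blood and endothelium list (6 hairpins, 1 of them tested) ran from 56.9 to 93.6 in knockdown GFP+ against 107 to 168 in knockdown GFP− cells, and from 33.4 to 97.5 in overexpression GFP+ against 315 to 471 in overexpression GFP− cells. That fall is carried by its tested hairpin, gga-mir-126. This had 53.7, 58.5 and 32.9 in knockdown GFP+ against 129, 159 and 98.3 in knockdown GFP− replicates. The whole list had 93.6, 84.6 and 56.9 against 143, 168 and 107 there. Taken without gga-mir-126, the list was thus higher in knockdown GFP+ cells, and it overlapped in the overexpression arm. gga-mir-126 was called lower by limma in the overexpression arm and by edgeR, with either library size, in both arms. limma called 9.85% of all tested hairpins lower in the overexpression arm. edgeR called 3.03% lower in the knockdown arm and 12.1% in the overexpression arm, or 9.09% and 8.33% with library sizes over all hairpins. The muscle list (9 hairpins, 3 tested) ran from 71.0 to 165 in knockdown GFP+ against 249.8 to 688 in knockdown GFP− cells, and from 24.4 to 190.3 in overexpression GFP+ against 266 to 1065 in overexpression GFP− cells. That sum is carried by its gga-mir-1a-2 and gga-mir-1a-1 hairpins, which edgeR called lower in both arms with either library size and limma called in neither. The same edgeR shares of all tested hairpins stand beside these calls. The third tested member, gga-mir-206, had 25.0 ± 7.42 in knockdown GFP+ against 14.0 ± 7.33 in knockdown GFP− cells, and 0 reads in overexpression GFP+ against 7.18 ± 6.64 normalized reads in overexpression GFP− cells, and was called in neither arm. The neural list (12 hairpins, 7 tested) overlapped between the gates in both arms, and limma called 0 of the 7 in either. edgeR called 1, gga-mir-124a-2, higher in the knockdown arm, where it called 15.9% of all tested hairpins higher. With library sizes over all hairpins that call was lost (edgeR adjusted p = 0.0568).

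Alignment of the same reads to human hairpins gave a second view of the family, not independent of the first. Of 12 human let-7 and miR-98 hairpins, 11 were tested among 114. They made up 12.3% ± 1.64 of hairpin reads in knockdown GFP+ against 1.57% ± 0.543 in knockdown GFP− cells, and 6.43% ± 1.98 in overexpression GFP+ against 0.931% ± 0.389 in overexpression GFP− cells. In the knockdown arm 7 of 11 were called higher, against 8.77% of all tested, and all 11 were free of overlap, against 32.5% of all tested. hsa-let-7i, among those called, passed the limit for testing only through knockdown GFP+ cells, so its call there is no independent support. hsa-let-7d and hsa-let-7e passed it only through GFP+ cells, with means of 57.9 and 45.9 in knockdown GFP+ against 5.15 and 2.17 in knockdown GFP− cells. The separation of these hairpins and of hsa-let-7i, and any call of them, is thus no independent support. hsa-let-7c led as in the chicken alignment, with 516 ± 88.3 normalized reads in knockdown GFP+ against 26.1 ± 16.8 in knockdown GFP− cells (log2 fold change 4.42, limma adjusted p = 0.000223), and hsa-let-7b followed with a log2 fold change of 4.36 (limma adjusted p = 0.00643).

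In the overexpression arm 5 human let-7 hairpins were called higher, against 7.02% of all tested, and 1 lower, against 11.4%. GFP+ libraries lay wholly above GFP− libraries for 5 of 11, against 10.5% of all tested, and wholly below for 1, against 17.5%. They overlapped for hsa-let-7g, hsa-let-7a-1, hsa-let-7d, hsa-let-7e and hsa-let-7f-2, so separation was less complete than in the chicken alignment. Depth was lower as well, with 2219, 518 and 974 human hairpin reads in overexpression GFP+ replicates 1 to 3. Replicate 2 had 1 read of hsa-let-7a-1 and 0 of hsa-let-7g, hsa-let-7d, hsa-let-7e and hsa-let-7f-2. The part of depth in the overlap was not tested. The largest log2 fold changes were again those of hsa-let-7b (5.18, limma adjusted p = 0.00334) and hsa-let-7c (3.51, limma adjusted p = 0.00205). The hairpin called lower was hsa-let-7i, which had 0 reads in each of the 3 GFP+ libraries, against 3.69, 1.80 and 2.44 normalized reads in GFP− replicates (1, 2 and 19 reads). At the GFP− level 0.547 reads would be expected over the 3 GFP+ libraries, and 3 reads over that group stand for 14.5 normalized reads, so no fold is given and a fall could not be detected at this depth, although limma called one. Compared groups alone gave 0 calls in this arm, and DESeq2 gave 10, where it called 15.8% of all tested higher.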

How the data were processed

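Small RNA from sorted chicken embryo cells was sequenced in 12 libraries, 3 in each of 4 groups. Per the labels' protocols, RNA was made with the miRNeasy Mini kit and Trizol-LS and libraries, size selected on a gel, with a NEXTflex small RNA kit (v3). STAR 2.7.0f, cutadapt and FastQC 0.11.5 are named per the submitters' processing notes, as is the build hg38. Not given in the sources used here are the chicken build, the counting tool, the treatment of reads that fit several hairpins and the source of the scaling.

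Hairpin values deposited by the authors are a normalized signal per hairpin, in a chicken-aligned and a human-aligned table. In all libraries 100% of values were whole multiples of 1 step within 0.001 reads, so whole reads were recovered. No mature arm was above 0. Of 911 chicken and 1918 human hairpin entries, 61 and 5 repeated an earlier name and were dropped, 8 and 3 of them above 0 and 0 of those let-7.

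Hairpins with a mean of at least 10 were tested on log2(value + 1) with limma 3.58.1 in R 4.3.3 (two-sided; a mean for each of 4 groups and a trended empirical Bayes variance), Benjamini-Hochberg adjusted over 132 or 114 hairpins and called at an adjusted p under 0.05. Fold changes of low hairpins on this scale depend on the pseudocount. Where a library is at 0 they can be larger or smaller than those of edgeR. Sums, shares and ratios were compared by exact two-sided permutation tests. Alternatives were edgeR 4.0.16 and DESeq2 1.42.0 on recovered reads, TMM scaling, other pseudocounts and filters, compared groups only, a replicate block and leaving out each library. The functions were tested on simulated data. Python 3.11.15 and scipy 1.17.1 were used.

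For TMM and edgeR, library sizes were first taken over all hairpins and then over the tested hairpins. The second was kept after the results of both had been seen: calls of the first differed from those of an earlier analysis of these data, and calls of the second matched it. Therefore edgeR and TMM results are given under both. Replicate numbers come from the titles. Deviations from the group means of same-numbered GFP+ and GFP− libraries correlated at 0.150, 0.379 and 0.144 in the knockdown arm of the chicken table. In its overexpression arm they correlated at 0.207, 0.324 and 0.111. The same number gave the best match for knockdown replicate 2 and overexpression replicates 1 and 2. It did not for knockdown replicates 1 and 3 and overexpression replicate 3. Each correlation was over 0.1, and the numbers were taken to pair the libraries there, but these values do not establish the pairing.

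The members, lists, tests and alternatives were chosen with earlier results of these data known. All 10 let-7 hairpins are named, with the tested human let-7 hairpins, the miR-99a, miR-100 and miR-125b families, the 5 hairpins most like the let-7 sum, and tested hairpins of the marker lists.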

Additional observations from a re-analysis of the deposited data

Results flagged for a closer look

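For hsa-let-7i, in the human alignment, limma called the difference of log2 fold changes between the arms (adjusted p = 0.0118, where 2.63% of tested hairpins were called lower). That call rests on overexpression GFP+ libraries with 0 reads, so the size of the difference is unknown. It also uses knockdown GFP+ cells, the only group through which hsa-let-7i passed the limit for testing, and is no independent support. hsa-let-7i had 39.4 ± 17.6 normalized reads in knockdown GFP+ against 5.03 ± 1.27 in knockdown GFP− cells, and 0 in each overexpression GFP+ library against 2.64 ± 0.961 in overexpression GFP− cells (SD, n = 3 each). At the overexpression GFP− level 0.547 reads would be expected over the 3 overexpression GFP+ libraries, so 0 reads do not tell a fall from no change within that arm. At the knockdown GFP+ level 8.17 reads would be expected over these libraries, and 0 were found. edgeR and DESeq2 did not call the difference between the arms, nor did limma without overexpression GFP− replicate 3.

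gga-let-7d, below the limit for testing, averaged 20.1 normalized reads in knockdown GFP+ cells, with 19.1, 29.0 and 12.3 in the replicates, against 6.68, 2.68 and 2.997 in knockdown GFP− replicates, without overlap. In overexpression GFP+ replicates it had 3, 0 and 0 reads, against 0, 5 and 17 in overexpression GFP− replicates.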

How the results depend on the processing

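For TMM and edgeR, library sizes over the tested hairpins were kept after the results of both versions had been seen, since their calls matched an earlier analysis of these data and those of the version run first did not. With sizes over the tested hairpins against sizes over all hairpins, edgeR called 10 against 9 let-7 hairpins in the knockdown arm and 9 against 9 in the overexpression arm, and TMM called 8 against 7 and 9 against 8. Between GFP+ cells, both called 3 against 0. Over all tested hairpins of the knockdown arm, edgeR called 21 higher and 4 lower against 17 higher and 12 lower. The median log2 fold change of all chicken hairpins moved by 0.16 against −0.29 in the knockdown arm, by 0.01 against 0.11 in the overexpression arm and by −0.21 against 0.28 between GFP+ cells. In the human table these counts were the same for both versions.

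Leaving out single libraries gave 5 to 8 let-7 calls in the knockdown arm, 6 to 9 in the overexpression arm, 0 to 1 for the difference between arms and 0 to 2 between GFP+ cells. In the human table it gave 4 to 7 (4 without knockdown GFP+ replicate 2 or GFP− replicate 3), 4 to 10 (10 without overexpression GFP+ replicate 2) and 0 to 1. Compared groups alone gave 4 calls in the overexpression arm. Calls between GFP+ cells numbered 1, and 3 with a pseudocount of 5, TMM, edgeR or DESeq2. They numbered 0 with no filter, a filter of 50, compared groups alone, TMM or edgeR with sizes over all hairpins. The 7 human calls of the knockdown arm became 4 with no filter and 11 with compared groups alone, edgeR (both library sizes, and with the replicate block) or DESeq2. In that arm edgeR, with either library size, and DESeq2 each called 28.9% of all tested human hairpins higher, against 8.77% by limma. The 6 human calls of the overexpression arm became 2 with no filter, 0 with compared groups alone and 10 with DESeq2, which called 15.8% of all tested higher. The 1 human call between arms became 0 with no filter, a filter of 50, edgeR (both library sizes), DESeq2 or the replicate block, in limma or edgeR. The cause of these moves was not tested.

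The replicate block left 8 and 8 chicken calls and gave 6 and 4 human calls, and edgeR with the block gave 10 and 9 chicken calls. For paired differences of the family sum (3.07 and 2.69 on the log2 scale), the share of hairpin reads (7.95 and 5.06 points) and of gga-let-7b plus gga-let-7c (15.1 and 14.9 points), the sign-flip p was 0.25, the smallest 3 pairs allow. In the human table same-numbered correlations ran from −0.139 to 0.360, and the same number gave the best match for overexpression replicate 2 alone.

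Directions reversed for hairpins with few overexpression GFP+ reads. gga-let-7i there changed from −0.79 to 0.00376 with a pseudocount of 5, 1.75 with edgeR, 1.84 with sizes over all hairpins, 1.77 with DESeq2 and 1.13 with the edgeR block, and ran from −2.39 to 0.0104 over left-out libraries. hsa-let-7i became 0.46 with DESeq2. hsa-let-7f-2 became 0.46 with a pseudocount of 5, 1.497 with edgeR under both library sizes, 1.64 with DESeq2 and 1.81 with the edgeR block, and ran from −1.48 to 2.35 over left-out libraries, with 0.40 without overexpression GFP− replicate 2. hsa-let-7g ran from −0.12 (without overexpression GFP+ replicate 3) to 3.48 (without replicate 2), and the log2 ratio of gga-let-7f to gga-let-7a-1 from −0.56 to 0.0493 (without overexpression GFP+ replicate 1). Without overexpression GFP+ replicates 2 and 3, the shallowest libraries, left out after seeing the data, the summed level differed by 2.83 on the log2 scale. Depth limits the overexpression arm most, where 1 read in GFP+ libraries stands for 6.68 to 24.4 normalized reads, or 7.88 to 38.7 in the human alignment.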
